A study of Mus musculus with 2 samples.

Results

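Crypt top fibroblasts (CTFs) of the Pdgfra reporter mouse were taken from the library of GFP-positive colonic mesenchyme as the cells in which Epcam, Ptprc and Cd34 were at 0, Col1a1 was at least 1, and the values of F3, Sox6, Wnt5a and Acta2 summed to at least 4. The rule found 476 cells. They made up 11.3% of the 4208 Col1a1 cells of the library (95% Clopper-Pearson interval 10.4 to 12.3%, counting error only) and 10.8% of its 4409 cells (9.89 to 11.7%), out of 11904 cells in both libraries of the series. The other 3732 Col1a1 cells, against which the CTFs are described, were 2479 cells with Cd34, 1203 cells without Cd34 whose sum stayed below 4, and 50 cells with a value of Epcam or Ptprc.

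Fibroblasts of the colon lie in layers around the crypt. Those beneath the surface epithelium and the crypt top are known for Bmp ligands, which favour differentiation, and those around the crypt base for Bmp antagonists, R-spondins and canonical Wnt ligands, which maintain stem cells. F3 encodes tissue factor, a surface receptor that starts coagulation, Sox6 is a transcription factor, Wnt5a is a ligand of noncanonical Wnt signaling, and Acta2 is the actin of smooth muscle and myofibroblasts. Pdgfra, the receptor for platelet-derived growth factor whose locus drives the reporter, was not part of the rule.

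The study made 1 droplet library from the colon of each of 2 kinds of mice. The reporter library held GFP-positive mesenchymal cells of female Pdgfra-H2B-eGFP mice, in which a nuclear histone-GFP fusion stands in the Pdgfra locus, and used the V2 reagents. The wild-type library held epithelial and non-epithelial cells of female C57BL/6 mice, sorted with antibodies to EpCAM and CD45 and mixed, and used the V3 reagents. Each library pooled 3 mice of 8 to 12 weeks of age, none of them given a treatment that the labels name. Cells were not assigned to mice, so there is no replicate and nothing was tested between mice. The sort was set to take cells in which Pdgfra had been active, so cells without the reporter were meant to be left out. How many such cells passed the sort was not tested. The GFP transcript itself was not analysed here.

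Values are corrected counts, the number of transcript molecules (UMIs) of a gene in a cell after the authors had adjusted the cell to a common depth. A level below is the mean corrected count per cell ± SD over cells, and a log2 ratio is that of the mean in CTFs over the mean in the other Col1a1 cells of the reporter library, unless stated otherwise. The SD is the spread between cells of pooled mice and not an error between mice. CTFs held a median of 3336 corrected counts (2566 to 4038) and 1537.5 genes per cell, and the other Col1a1 cells 3102 (2314 to 4049) and 1364 genes. Mitochondrial genes took a median of 2.02% in CTFs and 2.37% in the others. Only 1 cell barcode occurred in both libraries, and it was not that of a CTF.

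The genes of the rule were uneven among CTFs. F3 was above 0 in 88.0% of the 476 cells, with a median of 3 and a highest value of 20. Acta2 was above 0 in 87.0%, with a median of 4 and a highest value of 45. Wnt5a was found in 54.8% and Sox6 in 37.0% of the cells. All 4 genes were above 0 in 82 CTFs, 3 of them in 198, 2 in 152, and only 1 in 44, of which 28 rested on Acta2 alone and 16 on F3 alone. Without Acta2 in the sum, 305 cells would remain. The summed value ran from 4 to 57 with a median of 9. At the threshold, 58 CTFs had a sum of exactly 4 and 58 cells without Cd34 had a sum of 3 and stayed outside, and 65 cells reached a sum of 4 but held Cd34. In GRCm38 the genes of the rule lie on 4 chromosomes, with F3 at chr3:121723537-121735048, Sox6 at chr7:115470872-116038796, Wnt5a at chr14:28504750-28527448 and Acta2 at chr19:34241090-34255590.

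Of the 5 markers of the label, Pdgfra is the one that the rule left free, and it was higher in CTFs. Pdgfra, at chr5:75152292-75198215, reached 1.13 ± 1.25 in CTFs and 0.364 ± 0.702 in the other Col1a1 cells, a log2 ratio of 1.63, and was above 0 in 60.5% of CTFs (56.0 to 64.9%) and 27.1% of the others (25.7 to 28.6%). Values overlapped, with a highest value of 6 in both classes. Markers of crypt bottom fibroblasts other than Cd34 summed to 0.380 per CTF and 2.52 per other cell, and 2.10% of CTFs against 32.9% of the others held at least 2 of them. All general fibroblast markers were present, though their summed level was lower, 30.4 in CTFs and 54.4 in the others. Because the cells were chosen from the same values, these and the following ratios describe the cells and test nothing.

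Markers of other cell types were near 0 in CTFs for most lists. Those of smooth muscle, pericytes, interstitial cells of Cajal, lymphatic vessels, glia and epithelium were above the level of the other Col1a1 cells. Endothelial markers summed to 0.0084 per CTF and 0.0107 per other cell, lymphatic markers to 0.0294 and 0.0107, and glial markers to 0.0084 and 0.00616. No CTF held 2 of any of these lists, of which only 3, 2 and 2 markers were measured. Of the lymphatic markers 1 was at 0 in all CTFs, so no CTF could hold 2. The 3 markers of interstitial cells of Cajal summed to 0.313 per CTF and 0.126 per other cell, of which the transcription factor Etv1 made up 0.292 and 0.113, and 2 CTFs held at least 2 of them. Ano1 stood at 0.021 in CTFs, and Kit was at 0 in the 476 CTFs, which by a floor of 3 counts allows up to 0.630% of cells with a count and sets no limit on cells that express the gene. Epithelial markers summed to 0.0924 per CTF and 0.0812 per other cell, with 3 CTFs holding at least 2. Immune markers summed to 0.151, with 2 such cells and a highest sum of 44. Smooth muscle markers summed to 0.376 in CTFs and 0.152 in the others, and 13 CTFs held at least 2 of them, with a highest sum of 33. Myh11, the heavy chain of smooth muscle myosin, was above 0 in 10.3% of CTFs and 0.536% of the others, while the muscle intermediate filament gene Des had 1 corrected count over all CTFs. Among pericyte markers, Kcnj8 was above 0 in 17.4% of CTFs and 2.47% of the others, and Rgs5 in 1.47% and 2.47%, and 6 CTFs held at least 2 of the pericyte markers. No mesothelial marker of the list was in the table. The part of transcripts of other cell types in the values below was not tested.

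Of 6524 genes with a mean of at least 0.05 over all Col1a1 cells, 326 (5.00%) were at least 2-fold higher in CTFs and 399 (6.12%) at least 2-fold lower. A gene below 0.05 in the others could pass this filter through its level in CTFs, and the reverse. Bmp3, Ednrb, Fgf9, Nrg1 and Wif1 were among those that passed in this way and are in the counts of their lists. The median log2 ratio of the 6524 genes was 0.19, so that CTFs stood a little above the others in most genes. Totals were slightly larger in CTFs, and with genes taken as shares of the class total the median was 0.14. The cause of the shift was not tested. Outside the rule, and among genes with a mean of at least 0.5 in the higher class, the 15 highest ratios belonged to Tagln, Bmp3, Procr, Tspan13, Myl9, Pdlim3, Gnai1, Emid1, Fibin, Tmem158, Rerg, Bmp7, Cxcl14, Cav1 and Sept4, with log2 ratios from 4.83 down to 2.68.

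Tagln, which encodes the actin-binding protein transgelin, stood at 5.76 ± 7.05 in CTFs with a median of 3, and at 0.202 ± 1.07 in the others. Only 2.04% of the other cells reached the median of CTFs. Procr, the receptor of protein C at the surface of cells, stood at 3.66 ± 3.49 and 0.188 ± 0.745, and 1.69% of the other cells reached the CTF median of 3. Emid1, an extracellular protein with an EMI domain, had a level of 1.31 ± 1.57 in CTFs and 0.137 ± 0.545 in the others. Cav1, the main protein of caveolae, had 2.31 ± 2.40 and 0.326 ± 0.859. For each of these 4 genes some CTFs were at 0, and the share above 0 in CTFs ran from 59.0% for Emid1 to 82.6% for Procr.

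**Figure D1:**
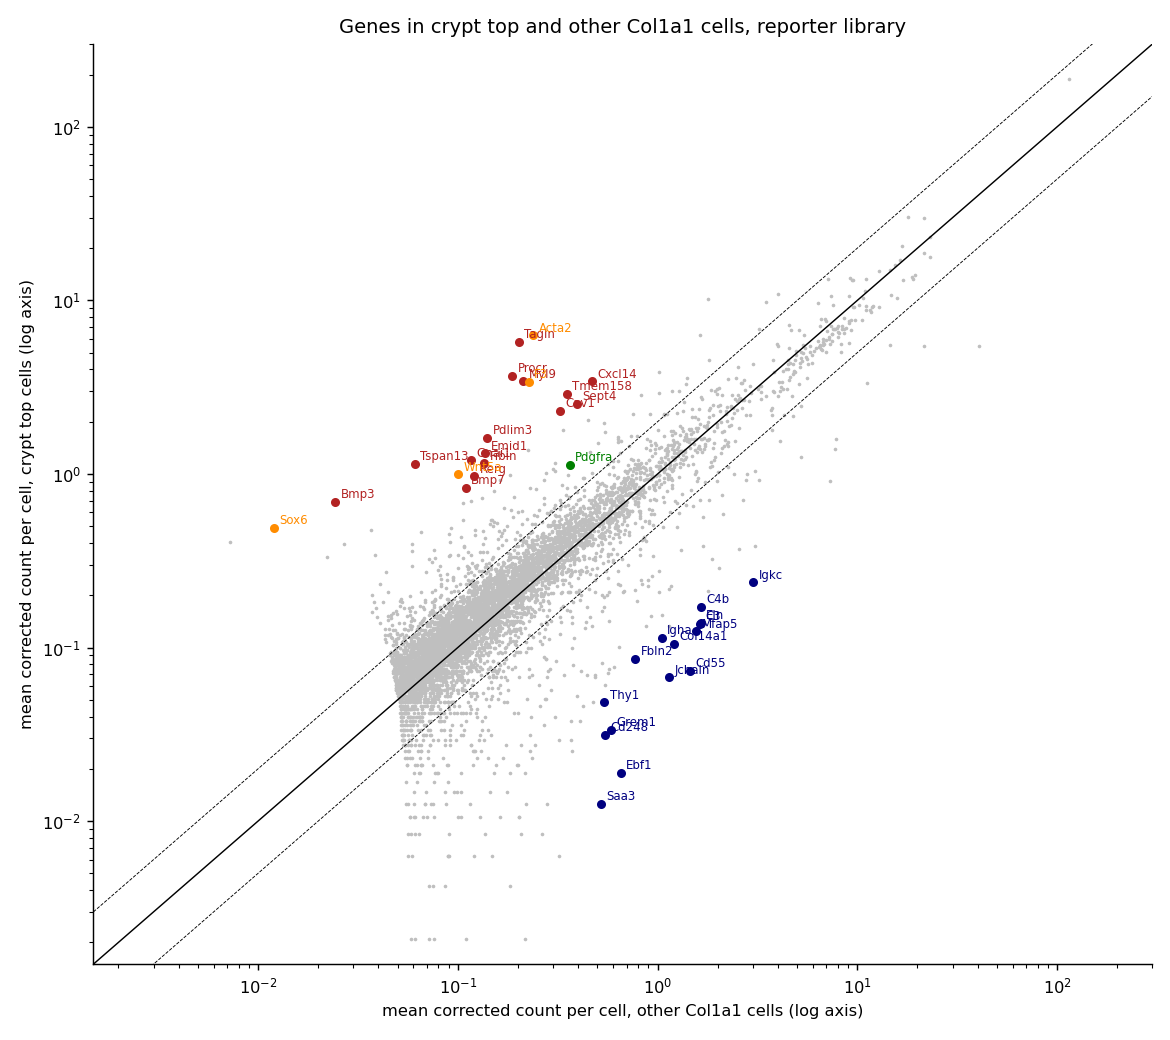
Mean corrected count per cell of each gene in the 476 CTFs (vertical, log axis) against the 3732 other Col1a1 cells of the reporter library (horizontal, log axis), with the line of equality, dashed lines at 2-fold, leading higher genes in red, leading lower genes in blue, genes of the rule in orange and Pdgfra in green, and genes at 0 in either class not drawn. Tagln (5.76 against 0.202) and Bmp3 (0.689 against 0.0244) lie far above the line, and Ebf1 (0.0189 against 0.653) and Cd55 (0.0735 against 1.45) far below it.

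Genes with the lowest ratios included surface proteins, matrix proteins and complement. Cd55, which protects cells from complement, was above 0 in 3.57% of CTFs and 56.8% of the others, a log2 ratio of -4.30. Ebf1, a transcription factor, was found in 1.26% and 19.0% (-5.11). Cd248, a surface protein of stromal cells, was found in 2.94% and 34.7% (-4.11). Matrix genes among the 15 were Mfap5 (-3.65), Eln (-3.57), Col14a1 (-3.53) and Fbln2 (-3.17), and complement genes were C3 (-3.57) and C4b (-3.26). Thy1 followed with -3.49.

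Not all of these low ratios came from many cells. Saa3, an acute phase protein, had the lowest ratio of the 15 (-5.37), but only 3.14% of the other cells held it, at 0.523 ± 7.47. The immunoglobulin genes Jchain (-4.08), Igkc (-3.67) and Igha (-3.21) also had an SD far above their mean in the others, 3.02 ± 45.4 for Igkc. When cells with at least 2 markers of another cell type were left out of both classes, the log2 ratios of Jchain, Igkc and Igha were -2.90, -2.72 and -2.04. Plasma cells, which make these genes, had no list of their own here.

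Most Bmp ligands were higher in CTFs. Of 10 listed, 7 passed the filter on low values, 4 were past 2-fold higher and 1 past 2-fold lower. The median log2 ratio was 1.73 beside 0.19 over all genes. Over all genes 5.00% were past 2-fold higher and 6.12% lower, which stands beside this and each list count below. Bmp3 passed the filter only through its level in CTFs. Bmp3 (chr5:98854415-98884396), a divergent member of the family, stood at 0.689 ± 0.990 in CTFs and 0.0244 ± 0.193 in the others (4.82), and was above 0 in 42.4% of CTFs (38.0 to 47.0%) and 1.90% of the others (1.49 to 2.39%). The activating ligands followed, Bmp7 with 0.834 ± 1.01 and 0.110 ± 0.396 (2.93), Bmp5 with 1.79 ± 1.49 and 0.334 ± 0.687 (2.42), and Bmp2 with 0.821 ± 1.58 and 0.247 ± 0.752 (1.73). Bmp4 was in most cells of both classes, 3.54 ± 2.44 and 2.26 ± 2.05, and did not reach 2-fold (0.65). Bmp6 went the other way, 0.109 ± 0.344 in CTFs and 0.257 ± 0.542 in the others (-1.23), or -0.95 with a pseudocount of 0.05. With genes of a mean of at least 0.01 admitted, the median of the ligands was 0.73. In that setting the contractile genes had a median of 2.04, above that of the ligands, which was not so with the filter of 0.05.

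Antagonists of Bmp were split. Grem1 (chr2:113746164-113758646), the gremlin made by fibroblasts around the crypt base, was found in 9 CTFs (1.89%, 0.868 to 3.56%) and in 23.3% of the others (22.0 to 24.7%), a log2 ratio of -4.12 that ran from -6.69 to -2.92 under other settings. Nbl1, a secreted Bmp antagonist of the DAN family, was higher in CTFs, 10.2 ± 6.48 against 1.78 ± 2.46 (2.51). Chrd, which encodes chordin, and Twsg1, a chordin partner, had log2 ratios of 1.26 and 1.12, which were below 2-fold at 0.82 (Chrd, with a pseudocount of 0.05) and 0.90 (Twsg1, with cells thinned to 1500 counts). The follistatin-related Fstl1 had a log2 ratio of -0.64. In all, 3 of the 6 measured antagonists were past 2-fold higher and 1 past 2-fold lower, with a median of 0.32.

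Genes that respond to Bmp or Tgf-beta were past 2-fold higher in 3 of 10 cases and lower in 1, with a median of 0.03. The higher genes were Tgfbi (0.987 ± 1.56 and 0.184 ± 0.616, log2 ratio 2.43), Id1 (1.86) and Id2 (1.24), the latter 2 being inhibitors of bHLH transcription factors. Id3 was abundant in both classes with 5.57 ± 5.19 and 3.97 ± 4.0 (0.49), and Id4 had -1.30, or -0.74 with a pseudocount of 0.05. Receptor genes stayed within 2-fold, with -0.67 for Bmpr1a, -0.31 for Bmpr2 and 0.11 for Acvr1.

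Canonical Wnt ligands and R-spondins were rare in both classes and rarer in CTFs. Wnt2 had 3 corrected counts over the 476 CTFs and was in 7.82% of the other cells, a mean 14.2-fold lower with a counting interval of 4.83 to 69.4. Wnt2b, which did not pass the filter, had 2 corrected counts and was 11.9-fold lower (3.24 to 98.7). Rspo3 had 3 corrected counts and was 9.31-fold lower (3.14 to 45.5), or at -0.95 on the log2 scale with a pseudocount of 0.05. Beyond Wnt5a, which the rule used, the noncanonical ligands Wnt4 (-0.49) and Wnt5b (-0.35) stayed within 2-fold.

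Secreted inhibitors of Wnt were mostly lower in CTFs. Of 6 past the filter, 4 were past 2-fold lower and 1 past 2-fold higher, with a median of -2.83. The higher gene, Wif1, passed the filter only through its level in CTFs. Wif1, which binds Wnt proteins outside the cell, was above 0 in 24.4% of CTFs (20.6 to 28.5%) and 0.536% of the others (0.328 to 0.826%), with levels of 0.405 ± 0.985 and 0.00723 ± 0.114 (5.81). The frizzled-related proteins were lower, with log2 ratios of -2.84 for Sfrp1, -3.64 for Sfrp2, -3.58 for Sfrp4 and -2.82 for Frzb. Sfrp1 was in 12% of CTFs and 68.3% of the others. Dkk3 stood at 0.987 ± 1.06 and 0.607 ± 0.876 (0.70). Wnt target and feedback genes, Axin2 and Lef1 among them, had 7 of 11 members in the table and none past the filter, so no ratio is given for them.

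Hedgehog signals from the epithelium reach fibroblasts and act on forkhead genes. Foxf2 was 0.393 ± 0.651 in CTFs and 0.133 ± 0.381 in the others (1.56), Foxf1 1.09 ± 1.15 and 0.596 ± 0.846 (0.87), and Ptch1, a receptor and target, 0.511 ± 0.744 and 0.335 ± 0.672 (0.61). Foxl1, known from subepithelial telocytes, did not pass the filter but was above 0 in 13.7% of CTFs (10.7 to 17.1%) and 2.92% of the others (2.40 to 3.51%). Gli1 was near even (0.33). Hhip, an inhibitor of the pathway, had 11 corrected counts in 3 CTFs, 8 of them in 1 cell, and a log2 ratio of -1.32, or -0.56 with a pseudocount of 0.05. Of the 8 hedgehog genes past the filter, 1 was past 2-fold in each direction.

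Transcription factors outside the rule were past 2-fold higher in 3 of 22 cases and lower in 4, beside 5.00% and 6.12% over all genes. Runx1 stood at 0.468 ± 0.741 in CTFs and 0.161 ± 0.461 in the others (1.54), Tcf4, a bHLH factor, at 2.20 ± 1.67 and 0.75 ± 1.05 (1.55), and Egr2, just at 2-fold, at 0.532 ± 1.15 and 0.265 ± 0.674 (1.00). The gut mesenchyme factor Nkx2-3 was just below 2-fold (0.99). Egr2 was below 2-fold under most other settings, at 0.78 with a sum of at least 6. Besides Ebf1, the lower factors were Osr1 (-1.83), Hand2 (-1.71) and Nr2f1 (-1.38), of which Hand2 and Nr2f1 had -0.65 and -0.62 with a pseudocount of 0.05. Hox genes of the posterior trunk were close between the classes, with log2 ratios of 0.39 for Hoxa9, 0.39 for Hoxa10, 0.49 for Hoxa11, -0.09 for Hoxd10 and -0.53 for Hoxd11.

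**Figure D2:**
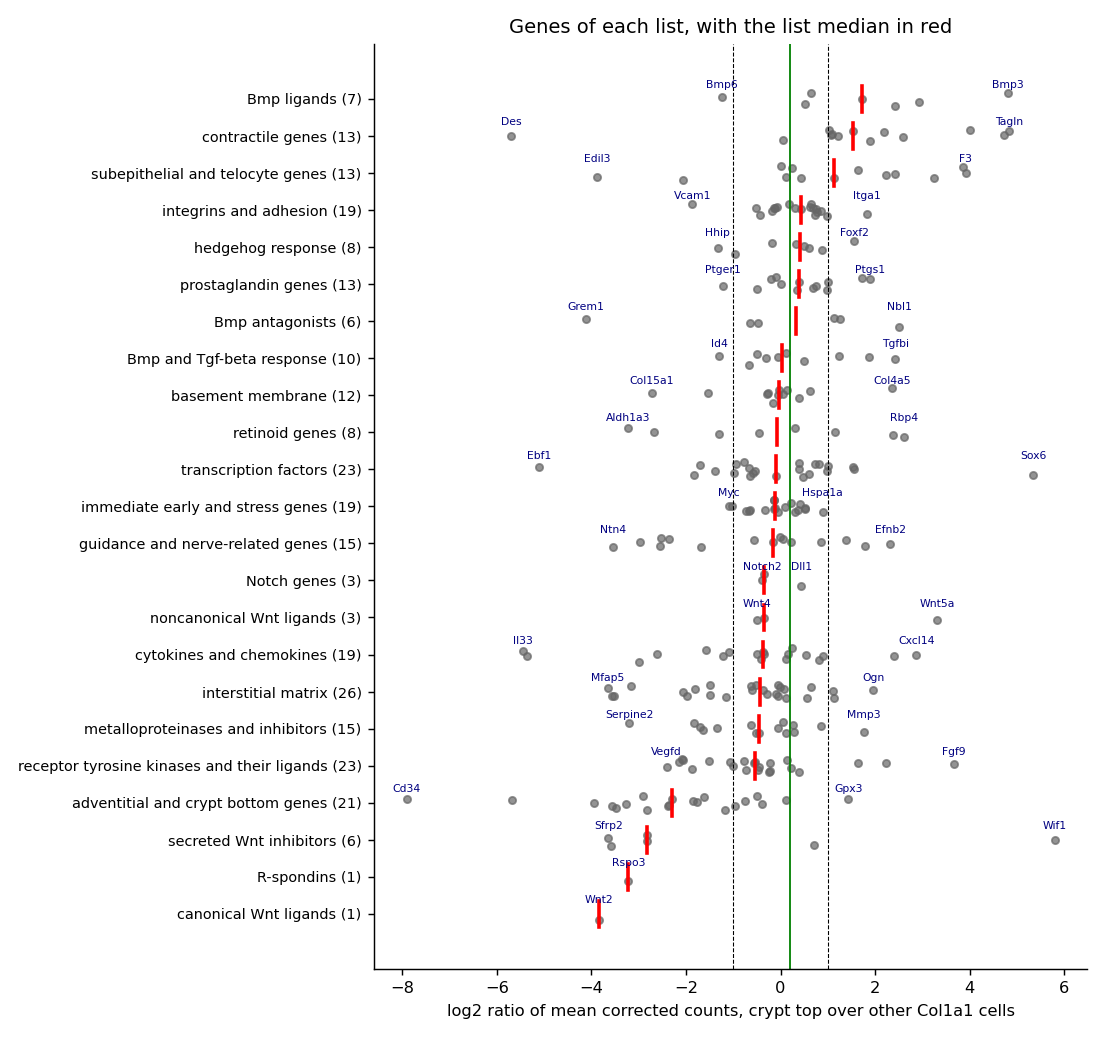
Log2 ratio of CTFs over the other Col1a1 cells (horizontal) for each gene past the filter in 23 of the 24 lists (vertical, number of genes in brackets), with the list median as a red bar, the median of all genes as a green line, dashed lines at 2-fold and the lowest and highest gene of each list named. Bmp ligands (median 1.73) and contractile genes (1.53) lie to the right and adventitial and crypt bottom genes (-2.31) to the left. Farther left are secreted Wnt inhibitors (-2.83), R-spondins (-3.22, 1 gene) and canonical Wnt ligands (-3.83, 1 gene). The points for Cd34 and Ntn4, at 0 in CTFs, are drawn at their lower bounds.

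Contractile genes were mostly higher in CTFs. Of 13 past the filter, 11 were past 2-fold higher, 10 without Acta2, and the median was 1.53, or 1.38 without Acta2. Besides Tagln, the light chain Myl9 stood at 3.42 ± 3.34 in CTFs and 0.213 ± 0.713 in the others (4.01), the kinase Mylk, which phosphorylates it, at 0.697 ± 1.02 and 0.117 ± 0.373 (2.58), tropomyosin Tpm2 at 2.04 ± 2.21 and 0.450 ± 0.770 (2.18), and the actin crosslinker Actn1 at 0.634 ± 0.849 and 0.170 ± 0.438 (1.90). Myl6, Tpm1, Tpm4, Cald1 and Flna had log2 ratios between 1.03 and 1.53, and Tagln2 was even (0.06). Of these, Tpm4, Flna and Myl6 were just past 2-fold and fell short of it with Acta2 left out of the sum, at 0.98, 0.85 and 0.95. Des was the exception, with 1 corrected count in CTFs and a mean 52.0-fold lower (9.29 to 2060). Acta2 itself was part of the rule. With Acta2 left out of the sum, the log2 ratio of Tagln was 3.54 and that of Myl9 3.32. With the CTFs that held at least 2 smooth muscle or pericyte markers left out, an option chosen after the data were seen, 441 CTFs gave 4.71 and 3.93.

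Letters of the CArG box, the motif to which serum response factor binds and which is known from contractile genes, were searched in the 250 bases before the RefSeq start of each gene (GRCm38.p6). The motif is CC, 6 bases of A or T, and GG, and reads the same way on both strands. In full it was found before 439 of 27025 genes (1.62%), and with up to 1 G or C among the 6 middle bases before 2643 (9.78%). Of 12 contractile genes past the filter with a sequence there, Myl9 and Myl6 held the full motif, and Acta2 also held it with 1 G or C. Pdlim3, a leading gene that encodes an actin-associated LIM protein, held the latter form too. Matches before Acta2, which chose the cells, and before Myl9 and Pdlim3, which were among the leading genes, are shown 5′ to 3′ on the strand of the gene with 10 bases on each side and the match in capitals. The genes to show were picked after their values were seen.
Acta2, chr19:34255438-34255467, minus strand, 84 bases before the start: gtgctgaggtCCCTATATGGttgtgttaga
Acta2, chr19:34255388-34255417, minus strand, 34 bases before the start: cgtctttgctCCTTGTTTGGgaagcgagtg
Myl9, chr2:156775293-156775322, plus strand, 161 bases before the start: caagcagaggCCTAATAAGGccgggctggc
Myl9, chr2:156775355-156775384, plus strand, 99 bases before the start: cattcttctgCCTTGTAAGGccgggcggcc
Pdlim3, chr8:45885377-45885406, plus strand, 100 bases before the start: tctctcacttCCAAAGTTGGagctctcctt
The first Myl9 match is the full motif and the other 4 have 1 G or C in the middle. The GENCODE annotation (release M21) places both Acta2 matches inside an exon of an Acta2 transcript that starts farther upstream, and none of the other 3 in a transcript on their strand. A match is a run of letters and was not tested as a binding site.

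Matrix genes separated by kind. In the interstitial matrix 3 of 26 genes were past 2-fold higher and 10 past 2-fold lower, with a median of -0.44. The fibrillar collagens Col1a2 (-0.05) and Col3a1 (-0.60) stayed within 2-fold, while Dcn, the proteoglycan decorin, stood at 5.44 ± 8.33 in CTFs and 21.6 ± 14.5 in the others (-1.99). Ogn, the related proteoglycan osteoglycin, went the other way with 6.34 ± 4.90 and 1.62 ± 2.52 (1.96), and 6.32% of the others reached the CTF median of 6. Tnc (1.13) and Emilin1 (1.10) were the other higher genes, with Tnc at 0.91 when Acta2 was left out of the sum. Among 12 basement membrane genes, the collagen chain Col4a5 was higher (0.546 ± 0.816 and 0.106 ± 0.363, 2.36), its main partners Col4a1 (-0.03) and Col4a2 (0.06) were even, and Col15a1 (-2.73) and Lamb2 (-1.54) were lower, with Lamb2 at -0.87 with a pseudocount of 0.05. Col4a6, which did not pass the filter, was in 10.7% of CTFs and 2.06% of the others.

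Adventitial and crypt bottom genes had a median of -2.31, with 15 of 21 past 2-fold lower, 14 of 20 without Cd34 itself, and 1 higher. Gsn, the actin-severing gelsolin, stood at 5.46 ± 8.97 in CTFs and 40.9 ± 26.8 in the others (-2.90), and Clec3b at 1.59 ± 2.18 and 7.85 ± 5.07 (-2.31). Pi16 (-3.28) and Cd81 (-1.77) were lower too. The single higher gene was Gpx3, a secreted peroxidase, with 10.9 ± 6.40 and 4.02 ± 3.72 (1.44). Ly6a (-0.40) and Igfbp3 (-0.51) stayed within 2-fold.

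Among 13 subepithelial and telocyte genes, 7 were past 2-fold higher, 6 without F3. Ednrb, an endothelin receptor, stood at 0.393 ± 0.903 in CTFs and 0.0271 ± 0.243 in the others (3.86), and was above 0 in 23.3% and 1.69% of cells. Nrg1, a ligand of ErbB receptors, stood at 0.208 ± 0.738 and 0.0445 ± 0.282 (2.23). Ednrb and Nrg1 passed the filter only through their level in CTFs. Edil3 (-3.89) and Nsg1 (-2.06) were lower, and Pdpn (0.25), Cd9 (0.02) and Adamdec1 (0.12) were even. The median was 1.14 with F3 and 0.79 without it, below 2-fold. It was 0.25 with a filter of 0.2 on the gene mean and 0.44 with Acta2 left out of the sum, both with F3 included. Bean1 and Cybrd1 did not pass the filter, and were above 0 in 13.7% and 21.0% of CTFs and in 1.13% and 2.06% of the others.

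Ligands and receptors of growth factors were past 2-fold higher in 3 of 23 cases and lower in 8, with a median of -0.54. Besides Pdgfra and Nrg1, Fgf9 was higher, with 0.473 ± 0.763 in CTFs and 0.0370 ± 0.248 in the others (3.68), present in 34.5% and 2.79% of cells. Nrg1 and Fgf9 passed the filter only through their level in CTFs. The lower genes included Fgf10 (-1.87), Fgf2 (-2.08), Vegfc (-2.07), Vegfd (-2.41), Hgf (-1.5) and the receptor Fgfr2 (-2.14). Low counts bore on Fgf2, Vegfc and Hgf, which had -0.97, -0.96 and -0.96 with a pseudocount of 0.05. Pdgfrb was even (0.22). Over the 476 CTFs the correlation of Pdgfra with any other gene past the filter was at most 0.227 (Pearson, for Polr2e), with 0.220 for Emid1, too weak in such sparse counts to be read as a relation.

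Small-molecule pathways had members at both ends. For prostaglandins, the cyclooxygenase Ptgs1 (0.544 ± 0.940 and 0.146 ± 0.489, 1.90) and the prostacyclin synthase Ptgis (0.50 ± 0.777 and 0.150 ± 0.479, 1.73) were higher, and the inducible Ptgs2 (-0.19) and Ptges (-0.10) were even, with 2 of 13 past 2-fold higher and 1 lower. For retinoids, 3 of 8 were higher and 3 lower. Aldh1a1, which makes retinoic acid, stood at 0.794 ± 0.973 in CTFs and 0.152 ± 0.426 in the others (2.38), whereas Aldh1a3 (-3.23) and Aldh1a2 (-1.30, or -0.66 with a pseudocount of 0.05), enzymes of the same step, were lower. Rbp4, a carrier of retinol, had a log2 ratio of 2.61.

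Cytokines and chemokines were past 2-fold higher in 2 of 19 cases and lower in 7, beside 5.00% and 6.12% over all genes. Their median was -0.36. Cxcl14 stood at 3.42 ± 4.44 in CTFs and 0.467 ± 1.85 in the others (2.87), and Il34, a ligand of the Csf1 receptor, at 0.489 ± 0.881 and 0.0927 ± 0.365 (2.40). Il33, an alarmin, had 2 corrected counts in CTFs and was 43.6-fold lower (12 to 360). The eosinophil attractant Ccl11 was in 9.24% of CTFs and 68.0% of the others (-2.99), and Il6 in 8.61% and 30.8% (-2.61). Cxcl12 was abundant in both, with 13.4 ± 8.22 and 9.20 ± 7.10 (0.54). Immediate early and stress genes, which respond to tissue dissociation as well as to signals, were past 2-fold higher in 0 of 19 cases and lower in 2, Myc (-1.09) and Atf3 (-1.02), which were within 2-fold at -0.79 and -0.99 with a pseudocount of 0.05. Fos had 0.30, Jun 0.52 and Hspa1a 0.89.

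In the remaining lists fewer genes stood apart. Among integrins and adhesion genes 1 of 19 was past 2-fold in each direction, near the 5.00% higher and 6.12% lower over all genes. The genes were the collagen receptor subunit Itga1 with 1.83 and Vcam1 with -1.86. Among metalloproteinases and inhibitors 1 of 15 was higher, Mmp3 (1.77), and 5 were lower, with Serpine2 at -3.20. Mmp10, below the filter, was in 11.1% of CTFs and 0.831% of the others. Of 15 guidance and nerve-related genes 3 were higher, Efnb2 (2.32), Ednra (1.78) and Sema3f (1.39, or 0.83 with a pseudocount of 0.05), and 6 lower, with Sema3c at -2.98. Ntn4 was at 0 in CTFs and at least 11.6-fold lower, against a floor of 3 corrected counts over the class. Gdnf and Edn3, factors for enteric neurons and their precursors, did not pass the filter but were above 0 in 9.66% and 13.4% of CTFs and in 0.804% and 0.991% of the others. Not every listed gene below the filter is named, and some went the other way. Gdf10 was above 0 in 0.420% of CTFs and 2.71% of the others, Fgf1 in 0.630% and 2.87%, and Ackr4 in 0.210% and 3.03%. None of the 3 Notch genes past the filter reached 2-fold.

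Cells on both sides of the threshold were set in order. Among the 1679 Col1a1 cells without Cd34, Epcam and Ptprc, cells were ordered by the sum of the 4 genes. The mean of Pdgfra was 0.343 in the 798 cells at a sum of 0, 0.472 at 1, 0.977 at 2 and 0.707 at 3, and in CTFs 1.01 at 4 to 5, 1.09 at 6 to 9, 1.2 at 10 to 14 and 1.23 at 15 or more. Cells just outside at 2 and 3 (129 and 58 cells) thus held mean levels of Pdgfra between those of the lowest bin and of CTFs. The median total was 2859 corrected counts in the lowest bin and 3627 in the highest, and its part in the values was not tested.

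Genes differed in how they followed the sum. Bmp3 went from 0.0201 at a sum of 0 to 0.172 at 3, 0.342 at 4 to 5 and 1.11 at 15 or more. Bmp5 (0.321 to 2.26), Bmp7 (0.0827 to 1.01), Cxcl14 (0.515 to 4.32) and Procr (0.129 to 5.73) were also highest in the last bin. Bmp2 was highest just outside the rule, with 1.14 at a sum of 3, 0.851 at 4 to 5 and 0.703 at 15 or more. This was not so with Acta2 left out of the sum. Bmp2 was then at 1.00 at 3, 1.07 at 4 to 5, 0.791 at 6 to 9, 0.885 at 10 to 14 and 1.33 at 15 or more (9 cells). Nrg1 was highest at a sum of 2 (0.279) and at 0.153 in the last bin, and Ednrb at 6 to 9 (0.50), with 0.324 in the last. Grem1 had means of 0.431 at 3, 0.123 at 4 to 5, 0.0139 at 6 to 9 and 0 above. Dcn went from 16.8 at a sum of 0 to 11.3 at 3, 9.26 at 4 to 5 and 4.26 at 15 or more, and Igfbp4 from 7.45 to 0.162. CTFs of sum 4 to 5, 24.0% of the cells, were the bin of CTFs whose means of Dcn, Grem1 and Igfbp4 lay nearest to those of the cells outside.

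**Figure D3:**
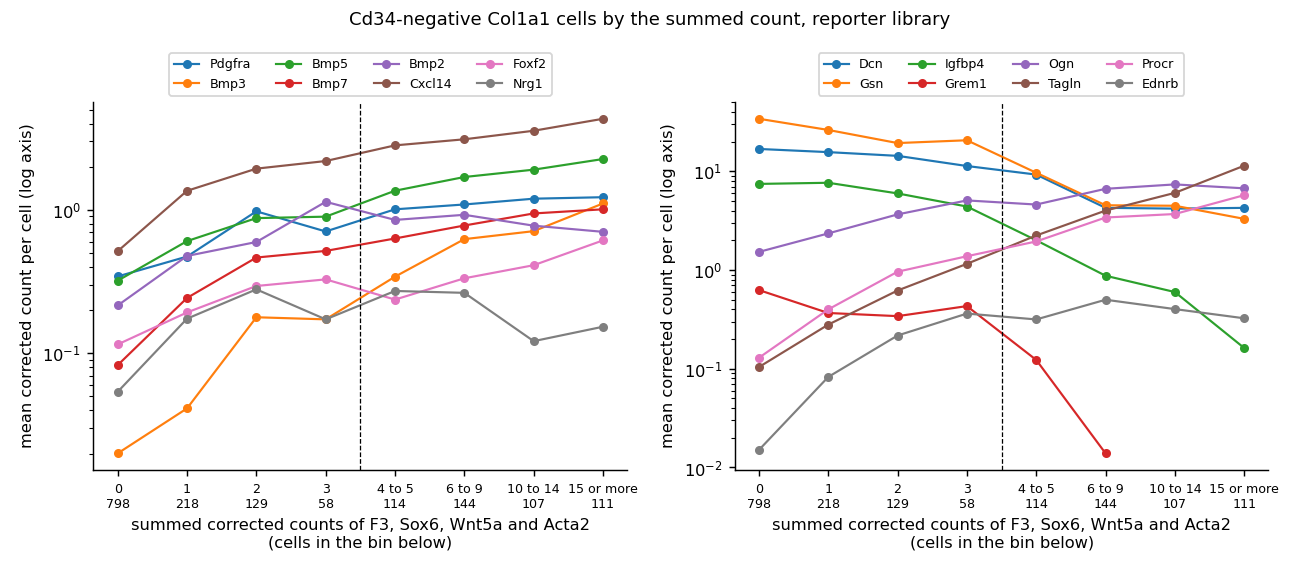
Mean corrected count per cell (vertical, log axis) in bins of the summed F3, Sox6, Wnt5a and Acta2 value (horizontal, number of cells under each bin) among Col1a1 cells without Cd34, Epcam and Ptprc, with a dashed line at the threshold of the rule and means of 0 not drawn. Bmp3 climbs from 0.0201 to 1.11, Bmp2 is highest at a sum of 3 (1.14), and Dcn goes down from 16.8 to 4.26.

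CTFs with more Acta2 held more Tagln, Myl9 and Pdlim3. With Acta2 at 0 to 2 (161 cells), 3 to 4 (85), 5 to 9 (126) and 10 or more (104), the mean of Tagln was 2.00, 3.78, 6.40 and 12.4, that of Myl9 1.65, 2.60, 3.75 and 6.45, and that of Pdlim3 0.944, 1.16, 1.77 and 2.85. Tpm2 was at 1.17, 1.36, 2.16 and 3.81 and Mylk, not in the same order, at 0.398, 0.718, 0.683 and 1.16. Signaling genes did not share a single order. Bmp3 was at 0.472, 0.529, 0.810 and 1.01, and Procr at 2.47, 3.59, 3.79 and 5.42, whereas Bmp2 was at 1.16, 0.694, 0.556 and 0.721 and Nrg1 at 0.304, 0.176, 0.159 and 0.144. Pdgfra stayed between 1.01 and 1.25, and Cxcl14 between 3.16 and 3.82. A cell with little Acta2 needed more of the other 3 genes to enter, and F3 was 3.91 in the lowest band and 2.56 in the next. Median totals were 3093 in the lowest and 3639.5 in the highest band, and their part was not tested.

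The 28 CTFs that rested on Acta2 alone had higher means of smooth muscle transcripts and lower means of the signaling genes. Their means were 0.714 for Myh11, 0.964 for Actg2, 0.571 for Bmp5 and 0.857 for Cxcl14, where the 305 CTFs with a sum of at least 4 without Acta2 had 0.125, 0.0197, 2.05 and 3.85. Pdgfra was 0.75 in the former and 1.17 in the latter. These cells were part of every value given for CTFs.

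**Figure D4:**
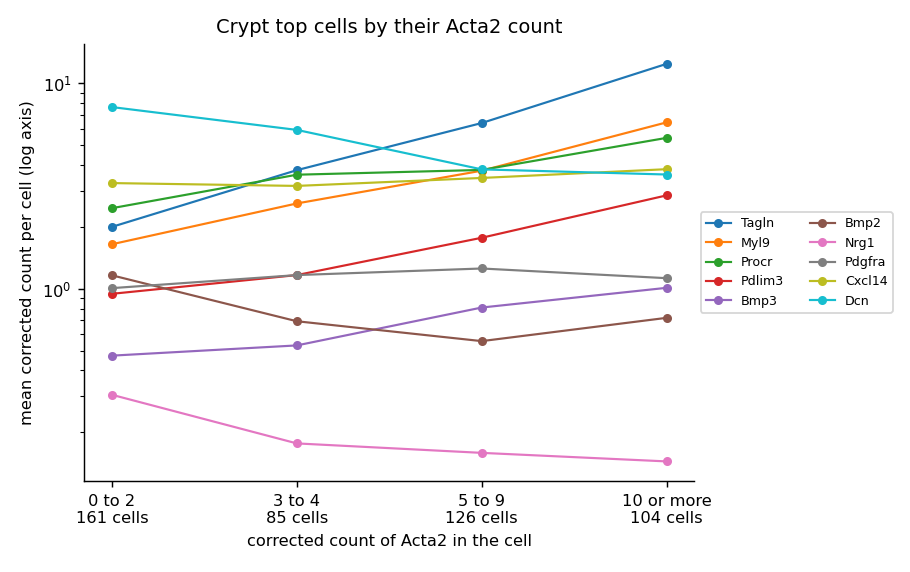
Mean corrected count per cell (vertical, log axis) of 10 genes in the 476 CTFs, split by the corrected count of Acta2 in the cell (horizontal, number of cells under each band). Tagln goes from 2.00 to 12.4 and Bmp3 from 0.472 to 1.01, Nrg1 goes from 0.304 to 0.144, and Pdgfra stays between 1.01 and 1.25.

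The wild-type library was used to look for cells like these without the reporter sort. Since that library also held smooth muscle cells, Acta2 was left out of the sum, and cells with F3, Sox6 and Wnt5a summing to at least 4 and no Cd34 were set against cells with Cd34, in each library by itself. This gave 305 and 2479 cells in the reporter library and 391 and 1241 cells in the wild-type library. Libraries differed in reagents, sort and mice, with median totals of 3380 corrected counts in the reporter and 8470 in the wild-type cells with the 3 genes, so levels are not compared between them. Of 6617 genes past the filter in the reporter library, 5.67% were past 2-fold higher and 6.98% lower. Of 10069 in the wild-type library, the shares were 4.62% and 8.26%. Over 6458 genes measured in both, 170 were past 2-fold higher in both, which is 46.4% of the 366 of the reporter and 73.3% of the 232 of the wild-type library, and 284 were lower in both, 65.3% of 435 and 68.6% of 414. Each pair of classes was chosen by the same genes, which are included in these counts.

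Apart from the genes of the rule, the 10 genes with the highest reporter ratios among those higher in both libraries were Wif1 (log2 ratio 6.90 in the reporter and 4.58 in the wild-type library), Bmp3 (6.10 and 4.04), Tspan13 (5.73 and 2.55), Procr (5.19 and 3.77), Tagln (5.03 and 1.13), Wisp1 (4.58 and 3.39), Myl9 (4.31 and 1.18), Emid1 (4.20 and 3.95), Fgf9 (4.12 and 3.52) and Cxcl14 (3.90 and 3.73). Wisp1 encodes a matricellular protein of the CCN family. In the reporter Cd34 class Wif1 (0.0044), Bmp3 (0.0113), Wisp1 (0.0153), Tspan13 (0.0222) and Fgf9 (0.0303) were below 0.05. There they passed the filter only through the class with the 3 genes. Tagln, Tspan13 and Myl9 had the widest gaps between the libraries among these 10. In the wild-type library the Cd34 class held Tagln at 5.32 and Myl9 at 2.77, beside a mean of 1.59 for Myh11 in that class and 1.53 in the class with the 3 genes, and 0.00403 and 0.125 in the reporter library. The part of smooth muscle transcripts in the wild-type ratios was not tested, and Tspan13 was on no smooth muscle list here.

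Some other genes stood close in both libraries. Pdgfra had log2 ratios of 1.86 and 1.89, Bmp7 3.53 and 3.04, Bmp5 2.93 and 2.67, Bmp2 2.25 and 2.70, Nbl1 2.80 and 2.10, Col4a5 2.65 and 3.03, Runx1 1.90 and 2.17, and Aldh1a1 2.61 and 2.76, reporter before wild type. Further listed genes stood apart, among them Ptgs2 (0.05 and 2.53), Fgf7 (-0.82 and 1.73), Pdgfa (-0.72 and 1.78), Vegfd (-2.37 and 0.18), Postn (-2.35 and -0.12) and Cilp (0.20 and -3.70). Apart from Cd34, the genes with the lowest reporter ratios among those lower in both were Edil3, Gpc3, Aldh1a3, Adh1 and Plxdc2. Each had 1 corrected count over the 305 reporter cells, so that the mean of Edil3 was 123-fold lower with a counting interval of 22.0 to 4855, and that of Plxdc2 50.4-fold lower with 9.0 to 1997. In the wild-type library their log2 ratios were -3.87, -4.20, -2.41, -4.77 and -1.48 in the same order.

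**Figure D5:**
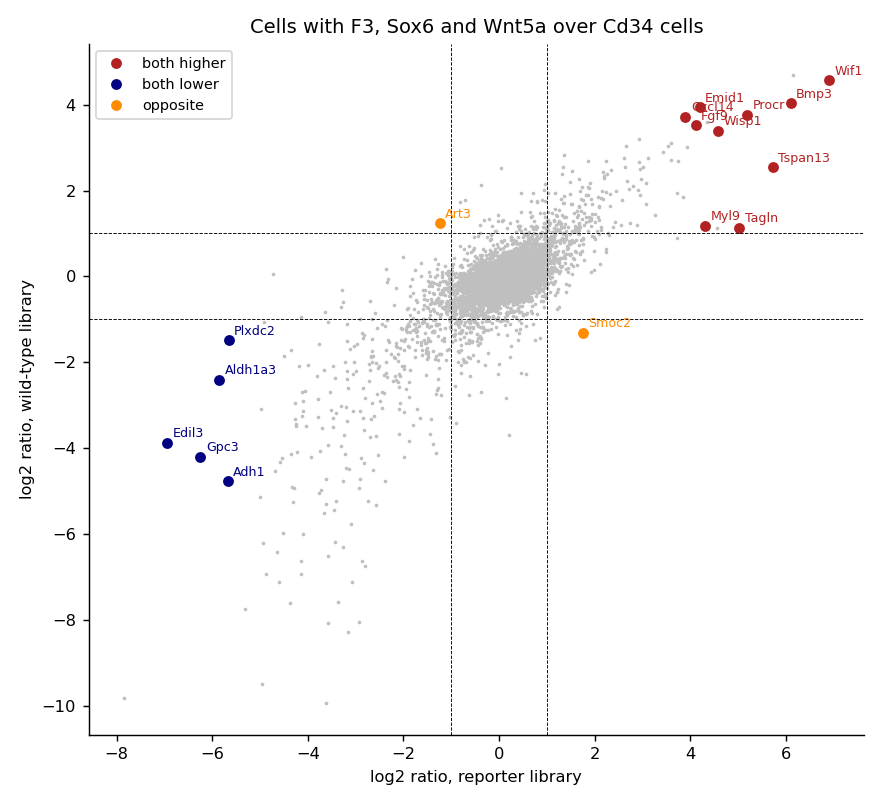
Log2 ratio of cells with F3, Sox6 and Wnt5a over cells with Cd34 for each gene in the reporter library (horizontal) and the wild-type library (vertical), with dashed lines at 2-fold, the 10 named genes higher in both in red, the 5 lower in both in blue and the 2 that are opposite in orange. Wif1 (6.90 and 4.58) and Bmp3 (6.10 and 4.04) lie at the upper right, Tagln (5.03 and 1.13) lies lower, and Smoc2 (1.76 and -1.31) and Art3 (-1.23 and 1.24) lie in the other corners.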

How the data were processed

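Per the labels and the study's methods, the authors counted UMIs with Cell Ranger (version 3.0.1) and filtered and normalized in Seurat 3.1 under R 3.6.2 (versions from the submitters' processing notes), keeping genes found in more than 5 cells and reporter cells under 10% mitochondrial. The score values as deposited are whole numbers read here as UMI counts that the authors corrected with SCTransform, and the second deposited table holds the natural log of these numbers with 1 added. Read depth cannot be recovered, and a value above 0 need not be a molecule of that cell. Doublets were not called.

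Class means and log2 ratios were computed with numpy 2.4.6, pandas 2.3.3 and scipy 1.17.1 (Python 3.11.15) for genes with a mean of at least 0.05, and tested on simulated data. A ratio against a class at 0 uses a floor of 3 corrected counts over that class. Shares have 95% Clopper-Pearson intervals. Intervals of ratios from 1 to 3 corrected counts treat these as if they were molecules, which after the correction holds only roughly. Named genes are those of the rule, the lists, the 15 highest and 15 lowest ratios, the 10 and 5 leading genes shared with the wild-type library, the genes with opposite ratios, and the genes most correlated with Pdgfra. Cells and lists were chosen with earlier results of these data known. Coordinates are those of GENCODE release M21, matched by symbol. Sequences come from RefSeq promoters. The alternatives moved the sum, the comparison cells, the scaling, the depth and the gene filters. Of the lists, 1 gene is not reported here.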

Additional observations from a re-analysis of the deposited data

Results flagged for a closer look

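Over genes measured in both libraries, 2 were past 2-fold in opposite directions. Smoc2, a secreted calcium-binding matrix protein, had a log2 ratio of 1.76 in the reporter library (0.138 in cells with F3, Sox6 and Wnt5a and 0.0407 in cells with Cd34) and of -1.31 in the wild-type library (0.0384 and 0.0951). Art3, an ADP-ribosyltransferase family member at the cell surface, had -1.23 in the reporter library (0.0557 and 0.131) and 1.24 in the wild-type library (0.711 and 0.301). With 1 library on each side the difference was not tested. With no limit on Epcam and Ptprc, the wild-type log2 ratio of Smoc2 was -0.44.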

How the results depend on the processing

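No paired analysis was possible because each kind of mouse gave 1 library and no cells were assigned to mice. The 476 CTFs became 534 with a sum of at least 3, 362 with at least 6, 305 without Acta2 in the sum and 541 with no limit on Cd34. Of 15 alternatives, 11 left the count of genes past 2-fold higher within 1.5 times of 326 and 12 that of genes lower within 1.5 times of 399. The exceptions were a gene mean of at least 0.01 (775 higher and 993 lower), of at least 0.2 (99 and 166), a pseudocount of 0.05 (184 and 217), and cells thinned to 1500 counts for the higher genes (172). Fewer or more genes pass another filter by construction. A pseudocount makes the ratios of low genes smaller, and thinned cells have lower means under the same filter of 0.05. How much of the moves came from this was not tested. Between 5 and 7 lists had a median past 2-fold, rule genes included (the subepithelial list passed only with F3). At the main setting canonical Wnt ligands and R-spondins were among them with 1 gene each. In the counts shared with the wild-type library no alternative moved a value by more than 1.5 times. Of 1991 values under the alternatives of 138 listed or leading genes past 2-fold, 1922 stayed past 2-fold in the same direction and 0 were reversed. The other 69 values belonged to 30 genes, 23 of which were within 2-fold with the pseudocount and 11 with Acta2 left out of the sum. Leaving out members with smooth muscle or pericyte markers was chosen after seeing the data. Corrected counts near 0.05 per cell rest on few molecules, so ratios of such genes are the least firm.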
